A study of Arabidopsis thaliana with 8 samples.

Results

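The 10 genes described here encode transporters that move sugars across the membranes of Arabidopsis cells. They are STP1 (AT1G11260), STP14 (AT1G77210), SUC1 (AT1G71880), SUC2 (AT1G22710), SUC4 (AT1G09960), SUC3 (AT2G02860), SWEET1 (AT1G21460), TMT1 (AT1G20840), ERD6 (AT1G08930) and ESL1 (AT1G08920). They were taken by locus identifier from the 9536 loci with values in the deposited expression table, and all 10 were among the 5261 genes that passed the filter on low counts. The list was chosen by gene family with earlier results of the same 8 libraries in view, among them the fall of STP1. The members' levels and differences are therefore a description, and no p-value is given for them. Where a member is said to pass the threshold (adjusted p under 0.05) or to be called, this too is only a description. It sets the difference beside the spread between libraries and is no support for a change of the group.

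RNA came from whole seedlings of Arabidopsis thaliana, ecotype Col0, grown on MS medium in long days at 22 °C and harvested at 11 days. The 4 genotypes were Col0, the wild type with no insertion, sr45, with a T-DNA insertion in SR45, sap18sr45, with insertions in SAP18 and SR45, and asap, with insertions in SAP18, SR45 and ACINUS. Each genotype had 2 libraries, and each mutant is represented by a single insertion line per gene. The proteins SAP18, SR45 and ACINUS form the ASAP complex, which acts in the processing of messenger RNA. No source tells if the 2 libraries of a genotype stem from separately grown seedlings. All errors and p-values therefore cover the spread among the deposited libraries, which may be technical in part.

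Plants make sucrose in their leaves and carry it through the phloem to roots, young leaves and other sinks. The SUC proteins are symporters that move sucrose together with protons, and SUC2 is the one that loads sucrose into the phloem. The STP proteins are proton symporters for hexoses in the plasma membrane, and STP1 takes up glucose and related monosaccharides from outside the cell. SWEET proteins let sugars pass along their gradient in either direction. TMT1, also called MSSP1, pumps hexoses into the vacuole, and the family of ERD6, named for its early response to dehydration, holds transporters of the vacuolar membrane. In the deposited table TMT1 is listed as MSSP1 and ESL1 as SUGTL2.

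The libraries held between 1295244 and 4052420 counts over the loci used. The coefficient of variation between the 2 libraries, as a biological coefficient of variation, was 3.53% in Col0, 4.51% in sap18sr45, 10.5% in sr45 and 14.2% in asap, so differences within sr45 and asap are the least precise. Each SE and p-value below comes from a fit that shares the spread over the 4 genotypes. Both can thus be too small for differences that involve sr45 or asap. The unit cRPKM is the read count scaled to the mappable length of the gene and to the mapped reads of the library, so levels can be compared between genes. The SR45 transcript was at 24.2 and 21.0 cRPKM in Col0, 6.62 and 4.99 in sr45, 13.6 and 14.4 in sap18sr45 and 6.23 and 3.85 in asap. It was thus lower than in Col0 in all 6 mutant libraries, and least so in sap18sr45. These values cover the whole gene and do not tell reads before an insertion from reads after it. SAP18 and ACINUS were not analysed here. The labelled tissue, whole seedling, was checked on marker genes. The 5 leaf markers, of which RBCS-1A and the LHCB1 genes made up most, summed to between 43048 and 51770 cRPKM in every library, root markers were present at low levels, and both seed storage genes examined were at 0.

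The upstream sequences of the 3 genes that were past the threshold and lower than Col0 in every mutant (STP1, STP14 and TMT1) and of 1 gene that was higher in asap (SUC1) are shown because these genes carry the main patterns. Each is the run of 250 bases that ends just before the annotated start of the gene, 5′ to 3′ on the strand of the gene, from the TAIR10.1 assembly and RefSeq annotation. STP1 lies on the plus strand of chromosome 1, with the window at chr1:3776986-3777235. STP14 lies on the minus strand, with the window at chr1:29012097-29012346. TMT1 also lies on the minus strand, with the window at chr1:7248495-7248744. SUC1 lies on the plus strand, with the window at chr1:27053780-27054029. Capitals mark the motifs searched.
STP1: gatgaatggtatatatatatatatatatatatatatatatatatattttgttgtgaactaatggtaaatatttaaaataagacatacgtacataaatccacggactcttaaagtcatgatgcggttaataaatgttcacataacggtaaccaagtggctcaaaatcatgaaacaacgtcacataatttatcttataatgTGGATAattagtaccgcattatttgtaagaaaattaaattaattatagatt
STP14: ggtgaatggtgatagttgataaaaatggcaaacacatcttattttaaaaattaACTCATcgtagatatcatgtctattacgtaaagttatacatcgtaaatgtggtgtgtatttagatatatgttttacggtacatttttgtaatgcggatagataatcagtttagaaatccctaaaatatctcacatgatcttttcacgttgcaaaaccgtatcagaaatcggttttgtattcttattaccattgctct
TMT1: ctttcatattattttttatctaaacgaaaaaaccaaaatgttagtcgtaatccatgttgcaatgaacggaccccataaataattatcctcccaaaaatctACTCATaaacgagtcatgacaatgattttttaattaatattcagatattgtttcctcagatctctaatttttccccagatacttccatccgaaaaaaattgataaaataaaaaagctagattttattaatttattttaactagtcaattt
SUC1: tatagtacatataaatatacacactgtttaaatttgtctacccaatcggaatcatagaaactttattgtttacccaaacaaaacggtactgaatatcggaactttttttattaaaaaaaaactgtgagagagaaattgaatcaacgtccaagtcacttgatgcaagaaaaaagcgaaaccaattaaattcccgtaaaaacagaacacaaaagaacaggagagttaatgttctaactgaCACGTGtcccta

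The 3 motifs searched, on both strands, over 250 bases before and 50 bases after the start were TATCCA, known from sugar-starved rice cells, the G-box CACGTG and ACTCAT, an element bound by group S bZIP factors. None of these 6-base words overlaps another in the windows of the 10 genes. The TATCCA word was found in STP1, as TGGATA at 51 bases before the start, and in SUC4, and it occurred in 16.1% of the 27443 promoters of protein-coding genes. The G-box was found in SUC1, 12 bases before the start, and in SUC2, 42 bases before it, against 7.68% of all promoters. ACTCAT was found in STP14, 197 bases before the start, and in TMT1, 150 bases before the start and once more just after it, against 14.7% of all promoters. The windows of SUC3, SWEET1, ERD6 and ESL1 held none of these letters. A match of 6 letters is a description of the sequence and not a binding site.

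STP1, the hexose importer of the plasma membrane, dominated the group in wild-type seedlings and was strongly reduced in every mutant. Its level was 850.20 and 850.71 cRPKM in the Col0 libraries, 216 and 220 in sr45, 281 and 272 in sap18sr45, and 94.2 and 87.8 in asap. No mutant library overlapped Col0, and all 4 genotypes were apart from each other in the order asap, sr45, sap18sr45, Col0. Among all loci with values, STP1 ranked 37 by cRPKM in both Col0 libraries, 179 and 176 in sr45, 139 and 139 in sap18sr45, and 408 and 423 in asap. These loci lie on chromosomes 1 and 2 only, so the ranks leave out the rest of the genome. Of the counts over these loci, STP1 took 0.528% in each Col0 library and 0.0584% and 0.0546% in asap.

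The log2 change of STP1 against Col0 was -1.98 ± 0.06 (SE, n = 2 libraries a genotype) in sr45, which is 3.94-fold lower. It was -1.68 ± 0.06 in sap18sr45, or 3.2-fold lower, and -3.39 ± 0.07 in asap, or 10.5-fold lower. The double mutant was thus somewhat less reduced than the single mutant, with a log2 difference of 0.30 ± 0.06 between sap18sr45 and sr45. The step from sap18sr45 to asap, which adds the ACINUS insertion, was -1.71 ± 0.06, about as large as the whole difference between sap18sr45 and Col0. The SR45 transcript differed in both comparisons too, by 1.26 ± 0.21 between sap18sr45 and sr45 and by -1.60 ± 0.20 from sap18sr45 to asap. The part of the SR45 level in these STP1 differences was not tested. In bulk RNA, fewer cells that express a gene and less RNA per cell cannot be told apart, for STP1 as for the other genes.

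**Figure D1:**
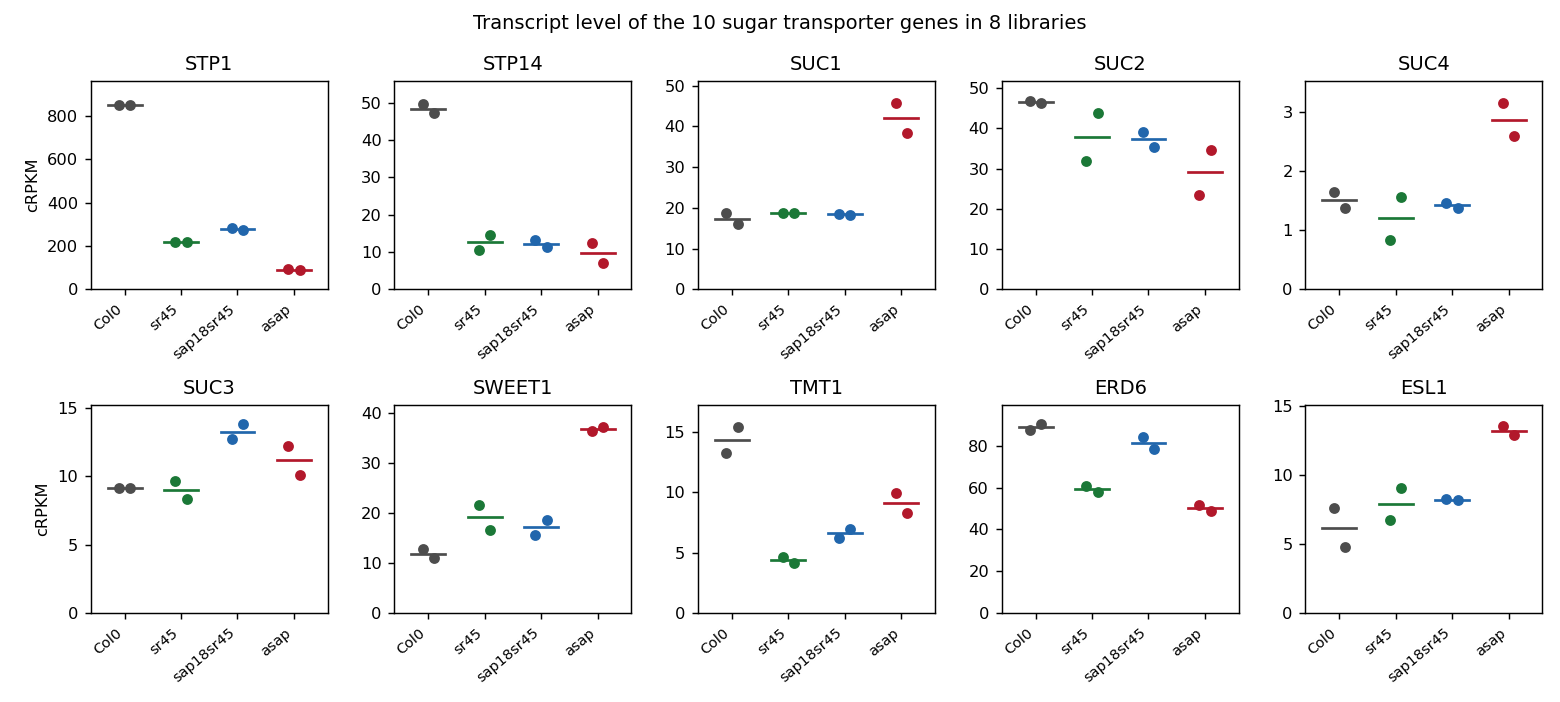
Transcript level of each of the 10 genes in cRPKM (y axis, from 0, with its own scale in each panel) by genotype (x axis). Each point is a library and each line is the mean of the 2 libraries. STP1 falls from 850.20 and 850.71 in Col0 to 94.2 and 87.8 in asap, STP14 and TMT1 are highest in Col0, and SUC1, SUC4, SWEET1 and ESL1 are highest in asap.

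The STP1 gene spans chr1:3777236-3780823 (TAIR10.1, plus strand) and has 4 exons. Its end overlaps AT1G11270, an F-box gene on the opposite strand, by 438 bases, and 10.9% of the 50-base words of the STP1 transcript also occur in transcripts of that locus. The libraries were stranded, but the sources do not state if reads were counted by strand. From the deposited counts, reads of the overlap therefore cannot be assigned to either gene. AT1G11270 itself was at 2.56 to 6.73 cRPKM in the 8 libraries, far below STP1 even in asap.

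STP14, a member of the same family that has been described as a galactose transporter, had a level of 49.5 and 47.2 cRPKM in Col0, 10.7 and 14.5 in sr45, 13.3 and 11.2 in sap18sr45, and 12.5 and 6.95 in asap. Col0 was apart from all mutants, while the mutants overlapped their neighbours in the order of means. The log2 change against Col0 was -1.92 ± 0.17 in sr45, -2.03 ± 0.16 in sap18sr45 and -2.51 ± 0.17 in asap, or 3.77-fold, 4.07-fold and 5.69-fold lower. The log2 difference of sap18sr45 to sr45 was -0.11 ± 0.19 and that of asap to sap18sr45 was -0.48 ± 0.19, and the 2 asap libraries differed from each other more than the means of the mutants did. Neither step passed the threshold in the fit reported here. The step to asap did so in 5 of 14 alternatives, with voom (-0.57), with no filter (-0.50), without either sr45 library (-0.51 each) and without the first asap library (-0.93), while it was -0.12 without the second asap library.

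TMT1, the vacuolar hexose importer, was at 13.3 and 15.4 cRPKM in Col0, 4.64 and 4.18 in sr45, 6.26 and 7.01 in sap18sr45, and 9.97 and 8.33 in asap. All 4 genotypes were apart, but in another order than for STP1. The single mutant was lowest and asap was the mutant nearest to Col0. The log2 change against Col0 was -1.73 ± 0.18 in sr45 (3.31-fold lower), -1.17 ± 0.15 in sap18sr45 (2.26-fold lower) and -0.82 ± 0.15 in asap (1.76-fold lower). The differences between neighbouring mutants, 0.55 ± 0.19 and 0.36 ± 0.16, were not past the threshold of the test, although the libraries did not overlap. The first passed without either asap library (0.55 each) and the second without the second asap library (0.47). An RNA gene on the opposite strand, AT1G05607, overlaps TMT1 by 204 bases, and 5.44% of the 50-base words of TMT1 occur there too.

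ERD6, the dehydration-induced vacuolar transporter and the second most abundant member, was at 87.6 and 90.2 cRPKM in Col0, 60.7 and 58.0 in sr45, 84.1 and 78.7 in sap18sr45, and 51.8 and 48.9 in asap. The genotypes were apart in the same order as for STP1, over a much smaller range of 1.77-fold between the highest and the lowest mean, against 9.35-fold for STP1. The log2 change against Col0 was -0.60 ± 0.07 in sr45, -0.18 ± 0.07 in sap18sr45 and -0.99 ± 0.07 in asap. The value for sap18sr45 was not past the threshold in that fit, but it was in 7 of 14 alternatives (-0.19 to -0.17), among them those without any 1 of the sr45 or asap libraries. From sr45 to sap18sr45 ERD6 was higher by 0.42 ± 0.08, and from sap18sr45 to asap it was lower, at -0.81 ± 0.07.

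Its neighbour ESL1, a close relative whose gene ends 2554 bases before that of ERD6 on the same strand, went the other way in asap. ESL1 was at 7.58 and 4.81 cRPKM in Col0, 6.71 and 9.07 in sr45, 8.25 and 8.16 in sap18sr45, and 13.5 and 12.9 in asap. Only asap was apart from the other genotypes, with a log2 change against Col0 of 0.90 ± 0.19 (1.87-fold higher) and against sap18sr45 of 0.58 ± 0.19. The changes in sr45 and sap18sr45, 0.34 ± 0.21 and 0.33 ± 0.20, were not past the threshold. ERD6 and ESL1 share no 50-base word, so reads of that length that match exactly would not be split between them.

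SWEET1, a facilitator of glucose movement across the plasma membrane, was the most strongly raised member. Its level was 12.7 and 11.0 cRPKM in Col0, 21.6 and 16.6 in sr45, 15.7 and 18.6 in sap18sr45, and 36.4 and 37.2 in asap. Col0 was lowest and asap highest, both apart from the rest, while sr45 and sap18sr45 overlapped. The log2 change against Col0 was 0.64 ± 0.19 in sr45 (1.56-fold higher), 0.45 ± 0.18 in sap18sr45, which did not pass the threshold, and 1.46 ± 0.17 in asap (2.75-fold higher). The sr45 value was no longer past the threshold without the second Col0 library (0.56) or without the first sr45 library (0.47). The sap18sr45 value passed it in 5 of 14 alternatives, when only the 4 libraries compared were fitted and without any 1 of the sr45 or asap libraries (0.44 to 0.45).

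Of the sucrose symporters, SUC1 had the clearest pattern, a higher level in asap. SUC1, known from pollen and roots, was at 18.7 and 15.9 cRPKM in Col0, 18.9 and 18.8 in sr45, 18.6 and 18.4 in sap18sr45, and 45.9 and 38.3 in asap. The 6 libraries of the other genotypes lay within 15.9 and 18.9 cRPKM. The log2 change in asap was 1.10 ± 0.11 against Col0 (2.15-fold higher) and 1.07 ± 0.11 against sap18sr45, while it was 0.10 ± 0.12 in sr45 and 0.03 ± 0.11 in sap18sr45 against Col0.

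SUC2, the phloem loader, was at 46.8 and 46.4 cRPKM in Col0, 31.9 and 43.9 in sr45, 39.2 and 35.3 in sap18sr45, and 23.4 and 34.7 in asap. Every mutant library was below Col0, but the libraries of sr45 and of asap differed widely from each other. The log2 change against Col0 was -0.83 ± 0.16 in asap (1.78-fold lower), and the changes of -0.29 ± 0.16 in sr45 and -0.38 ± 0.15 in sap18sr45 were not past the threshold. The first passed in 5 of 14 alternatives (-0.56 without the second sr45 library, otherwise -0.29 to -0.26, as with no filter and without either asap library) and the second in 7 of 14 (-0.39 to -0.36), among them those without any 1 of the sr45 or asap libraries. The step from sap18sr45 to asap was -0.46 ± 0.16. It was no longer past the threshold with DESeq2 (-0.45) or without any 1 of 5 libraries: either Col0 library (-0.47 and -0.47), either sap18sr45 library (-0.38 and -0.54) or the first asap library (-0.21).

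The vacuolar symporter SUC4 and the plasma membrane symporter SUC3 gave the least certain differences. SUC4 was the least abundant member, with 1.65 and 1.37 cRPKM in Col0, 0.84 and 1.57 in sr45, 1.46 and 1.38 in sap18sr45, and 3.15 and 2.59 in asap. It rested on 7 to 44 counts a library, and its asap change of 0.75 ± 0.35 did not pass the threshold although both asap libraries were the highest. SUC3 was at 9.14 and 9.13 cRPKM in Col0, 9.67 and 8.36 in sr45, 12.7 and 13.8 in sap18sr45, and 12.2 and 10.1 in asap. It was highest in sap18sr45, with a log2 change of 0.48 ± 0.15 against Col0, and this call was lost when any of the 4 Col0 or sap18sr45 libraries was left out (0.41 to 0.54). RefSeq names the product of AT2G02860 sucrose transporter 2, which is not the gene called SUC2 here.

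In sr45 against Col0, 4 of the 10 members were lower (STP1, STP14, TMT1 and ERD6) and 1 was higher (SWEET1), beside 16.5% of all genes tested that were lower and 15.2% that were higher. In sap18sr45, 3 were lower (STP1, STP14 and TMT1) and 1 was higher (SUC3), beside 14.2% and 12.9% of all genes. In asap, 5 were lower (STP1, STP14, SUC2, TMT1 and ERD6) and 3 higher (SUC1, SWEET1 and ESL1), beside 26% and 25.6%. These comparisons share the Col0 libraries. Since the list was chosen with these contrasts in view, nothing is read from the counts.

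Between the mutants, STP1 and ERD6 were higher in sap18sr45 than in sr45, where 2.51% of all genes tested were higher and 3.1% lower. The higher call of STP1 was lost without the first sap18sr45 library (log2 difference 0.28). In asap against sap18sr45, 3 members were higher (SUC1, SWEET1 and ESL1) and 3 lower (STP1, SUC2 and ERD6), beside 15.4% and 16.7% of all genes. The ESL1 call was lost without either sap18sr45 library (0.58 and 0.56) and with DESeq2 (0.59). The median size of the log2 change over the members, whatever its direction, was 0.47 in sr45, 0.41 in sap18sr45 and 0.94 in asap, beside 0.34, 0.29 and 0.50 over all genes tested.

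**Figure D2:**
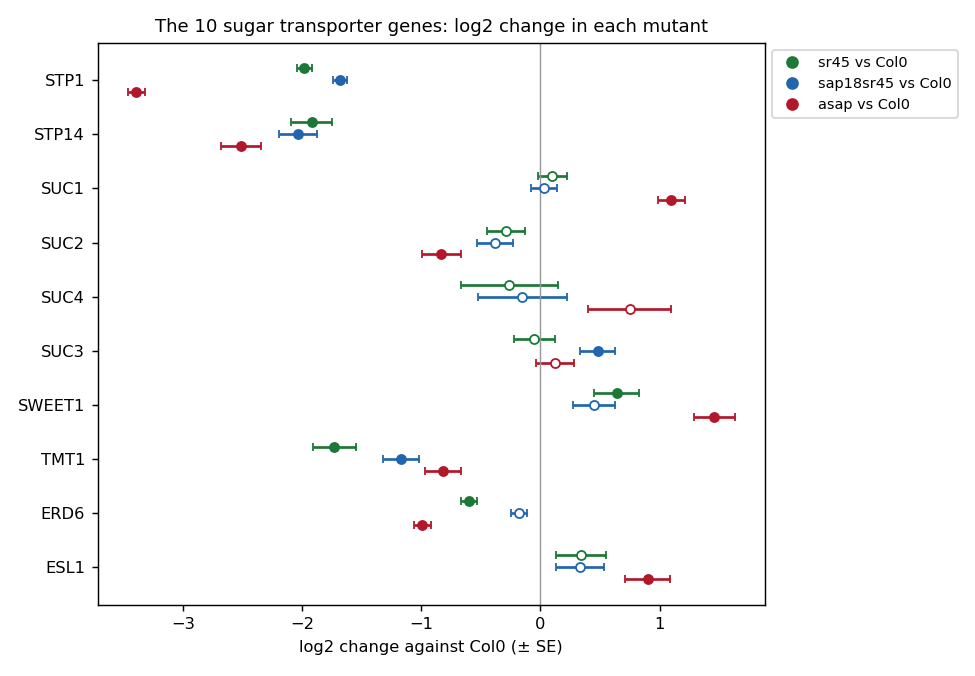
Log2 change of each of the 10 genes (y axis) against Col0 (x axis) in sr45, sap18sr45 and asap. Points are estimates from 2 libraries a genotype, bars are ± 1 SE, and filled points have an adjusted p under 0.05. As the genes were chosen with these contrasts in view, the filling is a description only. STP1 reaches -3.39 in asap, STP14 and TMT1 are below 0 in all mutants, and SWEET1, SUC1 and ESL1 reach 1.46, 1.10 and 0.90 in asap.

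The makeup of the group shifted with STP1. STP1 made up 77.5% and 77.9% of the summed cRPKM of the 10 genes in Col0, 56.7% and 55.7% in sr45, 58.5% and 58.6% in sap18sr45, and 31.1% and 30.5% in asap. The summed level was 1097 and 1092 cRPKM in Col0 and 303 and 288 in asap. Without STP1 it was 247 and 241 in Col0, 166 and 175 in sr45, 200 and 193 in sap18sr45, and 209 and 200 in asap, so most of the difference in the sum was that of STP1. In asap SUC1 held 15.1% and 13.3% of the sum, against 1.7% and 1.46% in Col0. SWEET1 held 12% and 12.9% in asap, against 1.16% and 1.01% in Col0.

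**Figure D3:**
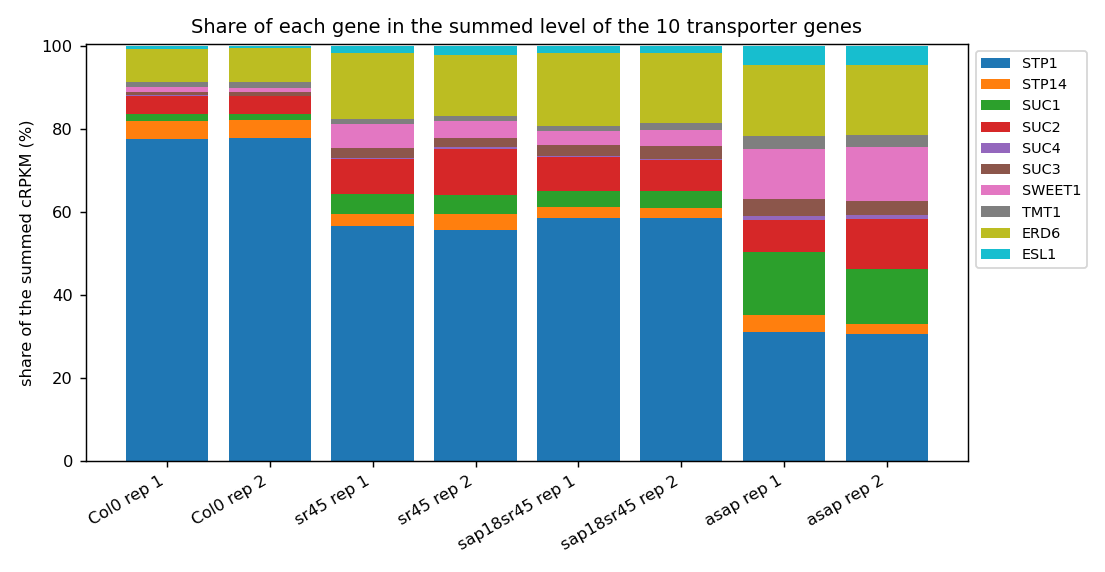
Share of each gene in the summed cRPKM of the 10 genes (y axis, percent) in each of the 8 libraries (x axis). The STP1 share falls from 77.5% and 77.9% in Col0 to 31.1% and 30.5% in asap, and the shares of SUC1, SWEET1 and ERD6 widen.

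The genes whose log2 levels over the 8 libraries were most like STP1, by Pearson's r, were AT1G54740, which encodes a FANTASTIC four-like protein (r = 0.997), ACO4 (AT1G05010), an ethylene-forming enzyme (r = 0.995), WRI4 (AT1G79700), a transcription factor of the AP2 family (r = 0.995), SAP1 (AT1G12440), an A20/AN1 zinc finger protein (r = 0.995), and AT1G01240, an uncharacterized protein (r = 0.994). Only the 5261 genes tested, all on chromosomes 1 and 2, could enter this ranking. The 8 points share their libraries and fall into 4 genotypes, so r describes the order of the genotypes and carries no test. Over the genotype means AT1G54740 went from 223 ± 3.36 cRPKM (SD, n = 2) in Col0 to 65.6 ± 1.21 in asap, and ACO4 from 210 ± 0.976 to 117 ± 4.16, both smaller ranges than that of STP1. Among the members, r with STP1 was 0.93 for ERD6, 0.91 for STP14, 0.82 for SUC2 and 0.53 for TMT1, and it was -0.95 for SWEET1, -0.85 for ESL1, -0.81 for SUC1, -0.49 for SUC4 and -0.13 for SUC3.

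Other sugar transporters were taken from a list of 20 monosaccharide, polyol and sugar phosphate transporter genes, of which 13 had values and 9 were tested. This list and those that follow were written by gene family, pathway or cell type, with earlier results of these libraries known. Their p-values describe single genes beside the spread between libraries and are no independent test of a list. In sr45, 2 of the 9 were lower, where 16.5% of all genes tested were lower. In sap18sr45 2 were lower and 1 higher, beside 14.2% and 12.9% of all genes, and in asap 5 were lower and 1 higher, beside 26% and 25.6%. The most prominent was ERDL6 (AT1G75220), a vacuolar glucose exporter of the ERD6 family. It was at 95.7 and 94.4 cRPKM in Col0, 50.9 and 46.2 in sr45, 53.9 and 56.7 in sap18sr45, and 42.1 and 39.3 in asap, and no mutant library overlapped Col0. By edgeR's quasi-likelihood test its log2 change was -1.39 ± 0.08 in asap, with an adjusted p of 1.45e-14. It was -0.99 ± 0.08 in sr45 and -0.84 ± 0.07 in sap18sr45, with adjusted p = 7.61e-11 and 8.27e-10 by the same test. The genotype means of ERDL6 stood in the same order as those of STP1 and ERD6, but sap18sr45 against sr45, at 0.15 ± 0.08, did not pass the test (adjusted p = 0.374, edgeR).

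AT1G54730, another gene of this family, fell in all 3 mutants. By edgeR it fell by 1.14 ± 0.12 on the log2 scale in asap (adjusted p = 3.62e-09), by 0.49 ± 0.12 in sr45 (adjusted p = 0.00165) and by 0.42 ± 0.11 in the double mutant (adjusted p = 0.00426). The sap18sr45 call was lost without the first Col0 library (adjusted p = 0.0853) or the first sap18sr45 library (adjusted p = 0.052). AT1G19450 was the 1 gene higher in sap18sr45, at 0.44 ± 0.08 (adjusted p = 0.000115). SGB1, a Golgi hexose transporter, was the 1 gene higher in asap, at 0.86 ± 0.23 (adjusted p = 0.00233). Its 2 asap libraries, 7.71 and 12.7 cRPKM, differed widely, and the call was lost without the second (adjusted p = 0.132) or without the first Col0 library (adjusted p = 0.0823). AT1G05030 was the weakest of the genes lower in asap, at -0.43 ± 0.17 (adjusted p = 0.0381), and was no longer called by DESeq2 (adjusted p = 0.102) or without any 1 of 5 libraries.

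The first genes of the ERD6 cluster on chromosome 1, where 4 ERD6-like genes lie on the plus strand, gave further values in asap. SUGTL3 (AT1G08900) was lower by edgeR, with a log2 change of -0.78 ± 0.13 (adjusted p = 8.58e-06). SUGTL4 (AT1G08890) was lower at -1.09 ± 0.36 (adjusted p = 0.0129), on 15 to 78 counts a library, and this call was lost without the first Col0 library (adjusted p = 0.107). With ERD6, 3 of the 4 ERD6-like genes of the cluster were lower in asap and ESL1 was higher, beside 26% and 25.6% of all genes tested. ERD6 and ESL1 are members chosen with these results in view, so nothing is read from this count. AT1G08910, which lies between SUGTL3 and ESL1 and is not a sugar transporter of the lists, was also higher in asap, at 0.70 ± 0.11. It is named after its values were seen.

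Between sr45 and sap18sr45 edgeR called 0 of the 9 genes, with 1 at an unadjusted p under 0.05, and DESeq2, which gave no adjusted p for 2 of them, also called 0. Of all genes tested, 2.51% were higher and 3.1% lower in that comparison. Between sap18sr45 and asap, 4 were lower and 1 higher, beside 16.7% and 15.4% of all genes. Of 5 other sucrose and SWEET transporter genes listed, 3 had values and 1, SUC5, was tested. SUC5 rested on 2 to 29 counts a library and was called in 0 of the 5 comparisons by edgeR, with an unadjusted p under 0.05 in 3 of them. DESeq2 also called it in 0 and gave it no adjusted p in 2. SUC7, SWEET6, STP2 and STP9 had 0 counts in all 8 libraries. A count of 0 allows up to 3 counts, or 0.74 to 2.32 CPM (counts scaled to library size) depending on the library, by counting error alone.

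**Figure D4:**
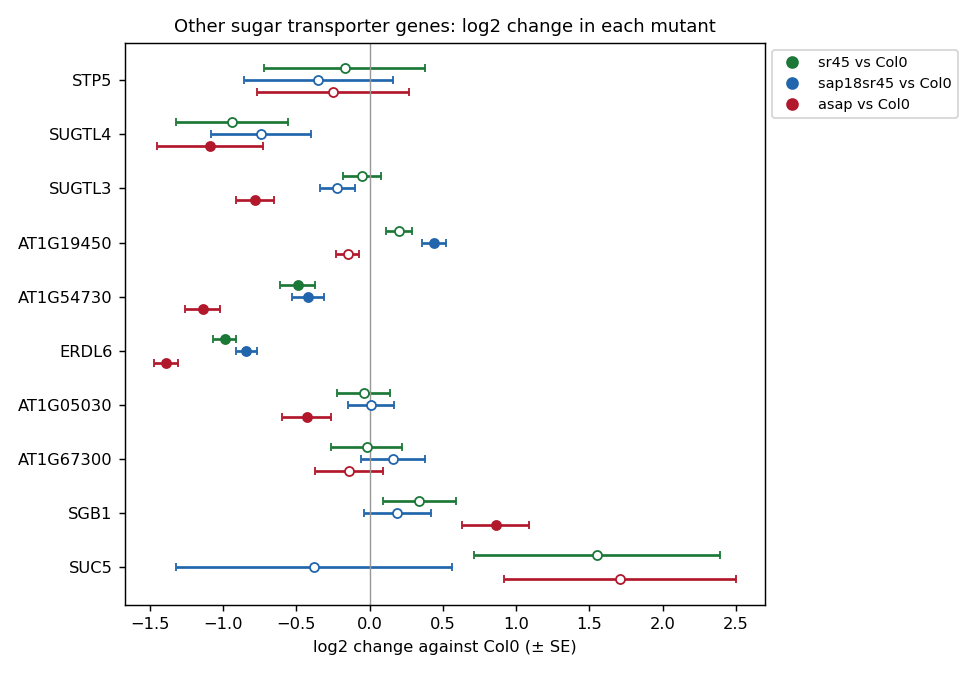
Log2 change against Col0 (x axis) of the 10 tested transporter genes outside the group (y axis) in sr45, sap18sr45 and asap. Points are estimates from 2 libraries a genotype, bars are ± 1 SE, and filled points have an adjusted p under 0.05. ERDL6 and AT1G54730 are below 0 in all mutants, at -1.39 and -1.14 in asap, and SUC5 has the widest bars.

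Of 17 genes of sucrose breakdown, sucrose synthesis and hexose phosphorylation, 15 had values and 12 were tested. Against Col0, 4 fell and 1 rose in sr45, beside 16.5% and 15.2% of all genes tested, and 3 fell and 1 rose in sap18sr45, beside 14.2% and 12.9%. In asap 3 fell and 3 rose, shares close to the 26% and 25.6% of all genes. CINV1, a cytosolic invertase that splits sucrose into glucose and fructose, was at 155 and 157 cRPKM in Col0 and between 70.6 and 85.9 in all 6 mutant libraries. Its log2 changes in sr45, sap18sr45 and asap were -1.02 ± 0.07, -1.17 ± 0.06 and -1.11 ± 0.06, with adjusted p = 1.08e-12, 3.4e-14 and 3.71e-14 by edgeR. Unlike STP1, CINV1 was at a like level in all mutants.

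The vacuolar invertase BFRUCT4 fell in all mutants and most in sap18sr45, by 1.01 ± 0.07 on the log2 scale (adjusted p = 2.95e-12, edgeR), against 0.65 ± 0.07 in asap (adjusted p = 3.29e-09) and 0.32 ± 0.07 in sr45 (adjusted p = 0.000515). The related invertase BFRUCT3 was at 50.3 and 51.9 cRPKM in asap against 25.6 and 25.0 in Col0, a log2 change of 0.85 ± 0.09 (adjusted p = 2.88e-09), whereas it fell by 0.53 ± 0.09 in sap18sr45 (adjusted p = 4.67e-05). HKL1, a hexokinase-like protein, fell by 1.19 ± 0.11 in asap (adjusted p = 3.42e-10) and by 0.48 ± 0.11 in sr45 (adjusted p = 0.000877). The HKL1 call in sr45 was lost without the first Col0 library (adjusted p = 0.0532). In sap18sr45 its value was 0.06 ± 0.10, above sr45 by 0.54 ± 0.11 (adjusted p = 0.00142), so HKL1, like STP1 and ERD6, was higher in sap18sr45 than in sr45. The remaining calls of this list against Col0 were lost with DESeq2. They were BFRUCT3 in sr45 (-0.26 ± 0.10, adjusted p = 0.116 with DESeq2), the neutral invertase gene INVD in sr45 (0.52 ± 0.18, adjusted p = 0.0752), the sucrose phosphatase gene SPP1 in asap (1.80 ± 0.64, adjusted p = 0.0528) and the sugar kinase gene AT1G66430 in sap18sr45 (0.40 ± 0.14, adjusted p = 0.0891) and asap (0.34 ± 0.14, adjusted p = 0.101). From sr45 to sap18sr45 1 of the 12 rose and 2 fell, beside 2.51% and 3.1% of all genes tested. From sap18sr45 to asap 3 rose and 1 fell, beside 15.4% and 16.7% of all genes. BFRUCT4 was lower in sap18sr45 than in sr45, at -0.69 ± 0.07 (adjusted p = 6.48e-08, edgeR), and higher in asap than in sap18sr45, at 0.35 ± 0.07 (adjusted p = 0.00016). From sap18sr45 to asap BFRUCT3 rose by 1.38 ± 0.09 (adjusted p = 1.09e-12) and HKL1 fell by 1.25 ± 0.11 (adjusted p = 4.09e-10).

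Root markers were higher in asap, where SUC1, SWEET1 and ESL1 were also high. The 4 root markers together were at 3.19 and 2.66 cRPKM in Col0, 3.67 and 4.93 in sr45, 9.63 and 7.98 in sap18sr45, and 47.1 and 40.9 in asap. All 4 were higher in asap, where 25.6% of all genes tested were higher. In sap18sr45, where 12.9% of all genes were higher, 2 of 4 were (PER3, a peroxidase of roots, and EXPA7, an expansin of root hairs). NRT2.1, a nitrate transporter, had 1 and 0 counts in Col0 and 10 and 32 in asap. Its log2 change of 5.34 ± 1.11 in asap thus rests on almost no counts in Col0. EXPA7 had 3 and 0 counts in Col0, DESeq2 gave it no adjusted p in sap18sr45, and its call there was lost without the second Col0 library (adjusted p = 0.178, edgeR) or either sap18sr45 library (adjusted p = 0.122 and 0.0643). In asap the call of EXPA18, another expansin, was lost without the first Col0 library (adjusted p = 0.0647) or the second asap library (adjusted p = 0.0965). PER3 carried most of the sum, with a log2 change of 3.77 ± 0.23 in asap (adjusted p = 1.29e-13, edgeR). In sr45, where 15.2% of all genes were higher, edgeR called 0 of the 4, with 1 at an unadjusted p under 0.05, and DESeq2 called 0. The part of root tissue in the levels of the sugar transporters was not tested.

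The 3 phloem markers together were at 11.9 to 12.3 cRPKM in Col0, 11.5 to 15.2 in sr45, 11.8 to 12 in sap18sr45 and 12.5 to 12.6 in asap, and almost all of this sum was APL, a transcription factor of the phloem. Of the 2 tested, edgeR and DESeq2 called 0 in any comparison, with 0 at an unadjusted p under 0.05 by edgeR and no adjusted p by DESeq2 for 1 of them in 2 comparisons. The part of phloem cells in the level of SUC2 was not tested. The 3 guard cell markers summed to 16.8 to 22.2 cRPKM over the 8 libraries. SLAC1 and HT1, which act in the control of stomatal movement, were lower in asap, at -1.28 ± 0.34 (adjusted p = 0.00242, edgeR) and -1.40 ± 0.42 (adjusted p = 0.00609). Of all genes tested, 26% were lower there. Counts were low, with 68 and 52 in Col0 and 18 and 21 in asap for SLAC1. For HT1 they were 66 and 39 in Col0 and 10 and 21 in asap. The call of HT1 was lost without the first Col0 library (-1.34). The third and most abundant, MYB60, was at 13.6 and 13.4 cRPKM in Col0 and 17.5 and 14.9 in asap, a log2 change of 0.09 ± 0.18 that was not called. STP1 is known to be strongly expressed in guard cells, and the part of these cells in its level was not tested.

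Leaf markers went both ways in the mutants. Of the 5, 2 were lower and 2 higher in sr45, beside 16.5% and 15.2% of all genes tested. In sap18sr45 3 were lower and 1 higher, beside 14.2% and 12.9%. In asap 3 were again lower and 1 higher, beside 26% and 25.6%. The antenna protein genes LHCB2.2 and LHCB2.1 were lower in sr45 (-0.62 ± 0.07 and -0.69 ± 0.09), in sap18sr45 (-0.58 ± 0.07 and -0.71 ± 0.09) and in asap (-1.22 ± 0.07 and -0.99 ± 0.09), with adjusted p between 9.9e-07 and 2.54e-14 by edgeR. LHCB1.3 was lower in sap18sr45 (-0.30 ± 0.06) and asap (-0.52 ± 0.06). RBCS-1A, of the small subunit of Rubisco, was higher in all 3 mutants, by 0.28 to 0.49, and at 0.00 with voom and quantile normalization. Quantile normalization gives genes of equal rank the same value in all libraries. RBCS-1A ranked 1 or 2 by cRPKM in every library, so that setting could hardly show a change of it. LHCB1.2 was higher in sr45 (0.27 ± 0.06). The part of leaf tissue in the levels of the sugar transporters was not tested.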

How the data were processed

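Stranded mRNA libraries from 8 whole-seedling samples (4 genotypes, 2 libraries each) were sequenced with paired reads. The authors quantified them with vast-tools on its Arabidopsis library, built on TAIR10 (per the labels), and deposited raw read counts per gene with no normalization. The authors also deposited cRPKM, which is RPKM computed on the mappable positions of a gene and scaled to the mapped reads of the library. The use of strand in counting is not given in the sources. The table used here lists 9998 loci, 9536 with values (8046 on chromosome 1 and 1490 on chromosome 2). A line with no locus name, up to 0.00281% of the counts listed for a library, was dropped. No value column was left unused.

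Counts were tested in R 4.3.3 with edgeR 4.0.16, using filterByExpr (5261 genes), TMM scaling and 1 robust quasi-likelihood fit over the 4 genotypes (residual degrees of freedom 4, common biological coefficient of variation 8.2%). The 5 contrasts were 2-sided, with Benjamini-Hochberg adjustment over all genes tested and a threshold of 0.05, and rose, fell, higher, lower and called refer to it. Each SE was taken as the absolute log2 change divided by the root of F. A call of this kind rests on the spread between libraries and sets no minimum fold, whereas the study's own rule asks that, on quantile-normalized values, all pairs of libraries differ at least 2-fold, given minima of 50 counts and 5 cRPKM. That rule, DESeq2 1.42.0, RLE size factors, limma 3.58.1 (voom with quantile normalization), no filter, a replicate block, the 4 libraries compared alone and leaving out each library were the alternatives. The fit was also run on simulated data in which all libraries had the same spread. That run does not cover the unequal spread of the 4 genotypes. The depth of 1295244 to 4052420 counts a library sets a floor of 3 counts, or 0.74 to 2.32 CPM (counts scaled to library size), for counting error only.

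The members and the lists of other transporters, sucrose metabolism and cell type markers were chosen with earlier results of these data known. The genes named were all members, SR45, the called genes of each list with the smallest adjusted p and the genes most like STP1 by Pearson's r on log2 CPM (prior count 1). Gene models, upstream sequences and shared 50-base words came from RefSeq (TAIR10.1), matched by locus identifier for all 10 members.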

Additional observations from a re-analysis of the deposited data

How the results depend on the processing

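Of the counts of called genes recomputed under alternatives, 183 stayed within 1.5 times their value and 42 did not, and of the log2 changes 956 kept direction and side of the threshold, 59 lost the call, 40 gained it and 9 changed sign. All 9 were of members that were not called. Outside the group, only calls against Col0 in the lists of other transporters and sucrose metabolism were followed. Those genes could lose a call but not gain 1. SUC3 in sr45 against Col0 was 0.01 with voom and quantile normalization. With 1 library left out, SUC3 ranged from -0.14 to 0.08 in sr45 and from -0.02 to 0.24 in asap against Col0, SUC1 from -0.06 to 0.14 in sap18sr45 and SUC4 from -0.85 to 0.04 in sr45. In sap18sr45 against sr45, STP14 ranged from -0.28 to 0.16, SUC2 from -0.28 to 0.18, SUC4 from -0.19 to 0.69 and ESL1 from -0.19 to 0.24. The cause was not tested.

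For sr45, sap18sr45 and asap against Col0, sap18sr45 against sr45 and asap against sap18sr45, in that order, the fit called 1669, 1425, 2713, 295 and 1689 genes, and the study's rule, which demands a 2-fold difference, took 138, 105, 442, 9 and 161. Of the 10 members it took 3, 2, 3, 0 and 1 instead of 5, 4, 8, 2 and 6, and of the other sugar transporters 0, 0, 1, 0 and 0 instead of 2, 3, 6, 0 and 5. With only the 4 libraries compared, 2168 genes and 7 members were called in sap18sr45, and 5 other transporters in sr45 and 5 in sap18sr45. Leaving out 1 library gave 1023 to 1975, 758 to 1845, 1952 to 2817, 112 to 472 and 988 to 1905 genes, 4 to 6, 3 to 7, 8, 1 to 4 and 4 to 8 members, and 2 to 4, 2 to 4, 3 to 6, 0 to 1 and 4 to 6 other transporters. The count of 3 other transporters in asap was without the first Col0 library, and that of 1 member between sap18sr45 and sr45 without the first sap18sr45 library.

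The replicate numbers of the labels did not pair the libraries (correlations of their deviations between -0.03 and 0.04). With a replicate block, 1617, 1355, 2654, 267 and 1604 genes, 5, 5, 8, 2 and 6 members and 2, 3, 6, 0 and 5 other transporters were called, and the added member was SUC2 in sap18sr45. The share of higher calls moved by over 10 percentage points with the study's rule only in sap18sr45 (33.3% instead of 47.6%) and in asap against sap18sr45 (62.7% instead of 48.1%) and, on 9 genes, between sap18sr45 and sr45 (55.6% instead of 44.7%). Low counts limit SUC4, SUC5 and SUGTL4 most, and sr45, with the shallowest library, is the least precise genotype in counting error.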
